A study of Mus musculus with 14 samples.

Results

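Intraflagellar transport and BBSome genes were examined in the olfactory epithelium of mouse pups at postnatal day 5 (P5). The group was a list of 37 gene symbols given by name: 12 subunits of the IFT-B complex, 7 of the IFT-A complex with its adaptor, 7 of the BBSome core, 3 chaperonin-like BBS proteins, 6 motor subunits and 2 small GTPases. All 37 were among the 51211 symbols of both deposited tables, and all 37 passed the filter on low values in both. Kif17, a kinesin motor subunit, was on the list by name. It appears to be a gene that the study itself singled out from these mice, for opposite changes in its 2 experiments. The symbol is misspelt there and is read here as Kif17. Tests of Kif17, those of the difference between its changes included, are therefore not independent evidence.

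RNA was sequenced from 14 pups in 2 experiments that share no mice. In the Kir2.1 experiment, 3 pups carrying OMP-IRES-tTA together with the responder tetO-Kir2.1-IRES-tauLacZ were compared with 3 OMP-IRES-tTA het littermates, so the tTA allele was common to both groups and only the first carried the Kir2.1 potassium channel transgene. Because the tTA is driven from the Omp locus, the channel is expressed in mature olfactory sensory neurons (OSNs), where it dampens spontaneous firing, and in other OMP-positive cells. The labels call these pups Kir2.1-off, a name that the study otherwise uses for adults fed doxycycline. Here they are named Kir2.1 mice. In the PEA experiment, 4 wild type pups exposed to the odorant 2-phenylethylamine (PEA) from P0 to P5 were compared with 4 unexposed wild type pups. The labels give C57BL/6 as the strain of all 14 pups, while the study's methods name CD-1 for the pups of the PEA experiment. Each library was made from 1 pup. Libraries differed in kind: short unstranded reads of poly-A RNA for Kir2.1, and long stranded reads of RNA freed of ribosomal RNA for PEA, so levels are not compared directly between the experiments.

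An OSN ends its dendrite in a tuft of long cilia, and the odorant receptors, the adenylyl cyclase and the cyclic nucleotide-gated channel all sit in their membrane. Cilia make no protein of their own. Intraflagellar transport (IFT) trains carry cargo along the microtubules of the axoneme: kinesin-2 motors drive the trains outward, dynein-2 motors bring them back, and the IFT-B and IFT-A complexes form the train itself. The BBSome is a coat-like complex that rides on the trains and moves membrane proteins in and out of cilia, with the GTPase ARL6 recruiting it to the membrane. Loss of BBS genes is known to impair the sense of smell in people and mice.

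The tissue matched its label. Mature OSN markers were abundant in every library, and Omp, the classic mature OSN marker, lay between 21062 and 36226 normalized counts in the Kir2.1 experiment and between 6087 and 10082 in the PEA experiment. Kcnj2, which encodes Kir2.1, ranged from 986 to 1274 in control and from 17926 to 24193 in Kir2.1 mice (log2 difference 4.18, SE 0.14, limma adjusted p = 0.000157). Summed per mouse, normalized counts came to about 33049100 to 34198500 in the Kir2.1 experiment and 11476100 to 12467300 in the PEA experiment, sums that do not give the depth of a library. Vomeronasal receptor genes, a sign of vomeronasal organ in the dissected tissue, were high in Kir2.1 control 1, at a mean log2 value of 6.06 against 2.35 to 2.45 in the other 5 mice of that experiment. They were also high in PEA controls 1, 2 and 3, at 5.77, 4.68 and 3.91, and in PEA exposed 1, at 5.33, against 1.38 to 1.66 in the other 4 mice. Differences of the members without these mice are given below.

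Kif17 encodes the homodimeric kinesin-2 motor that works in OSN cilia beside the heterotrimeric kinesin-2. The gene (ENSMUSG00000028758) lies on chromosome 4 of GRCm38, 138250435 to 138301967, on the plus strand. The RefSeq promoter table for GRCm38.p6 gives it a start inside that span, and the 250 bases before this start lie within the annotated gene, with 19 of them in an exon and the others in an intron of its longer transcript. They are shown because Kif17 carries the results below. In the lines that follow, the capitals mark the motif GTTGCC (reverse complement GGCAAC) read by RFX factors, which are known regulators of cilium genes, and the cyclic AMP response element TGACGTCA (CRE).

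Kif17, chr4:138262001-138262250, plus strand: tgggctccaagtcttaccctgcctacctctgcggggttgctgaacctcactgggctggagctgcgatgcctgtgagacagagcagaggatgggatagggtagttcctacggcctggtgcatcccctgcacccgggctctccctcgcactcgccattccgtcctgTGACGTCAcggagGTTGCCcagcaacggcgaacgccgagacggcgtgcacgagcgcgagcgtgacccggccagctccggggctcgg

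The CRE in that sequence starts 86 bases and the RFX motif 73 bases before the RefSeq start. Windows of 40 bases around the first RFX motif in 3 further members are printed for comparison, namely Bbs7 and Kif3a, whose values recur below, and Ift57, the only other member promoter with both motifs. The Ift57 window does not show its CRE, which starts 162 bases before the start, nor a second GTTGCC, 60 bases before it.

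Bbs7, chr3:36613488-36613527, minus strand: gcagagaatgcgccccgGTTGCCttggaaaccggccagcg
Kif3a, chr11:53567254-53567293, plus strand: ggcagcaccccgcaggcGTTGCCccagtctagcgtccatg
Ift57, chr16:49699190-49699229, plus strand: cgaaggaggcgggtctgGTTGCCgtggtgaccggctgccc

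The windows of Bbs7 and Ift57 lie outside annotated genes, and that of Kif3a lies in an exon of A430108G06Rik on the opposite strand. RefSeq held 34 promoters for 33 of the 37 members, each from 250 bases before to 50 after the start. Ift122, Ift81, Dync2li1 and Ift80 were not among them. The RFX motif, searched on both strands, occurred in 14 of the 34 member promoters (41.2%) and in 12.5% of all 32851 promoters in the table. The CRE, a search added after the Kif17 promoter had been seen, occurred in 3 of the 34 (8.82%; Kif17, Ift57 and Mkks) and in 1.79% of all promoters. Both occurred together in 2 of the 34 (5.88%) against 0.231% of all promoters. No member promoter had the exact letters GTTGCC and GGCAAC facing each other within 20 bases, an arrangement found in 0.164% of all promoters. Near matches were not searched. In the Kif17 sequence, GTTGCC is closely followed by agcaac, which differs from GGCAAC only in its first letter. The search thus does not tell whether members have a looser facing pair. The motifs do not overlap in these sequences. A match to letters is a description of the promoter and does not show that a factor binds it.

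The first question was whether silencing of OSNs or odor exposure changed the genes of the transport machinery. In neither experiment did a member pass an adjusted p of 0.05 (limma on log2 of the normalized count plus 1, Benjamini-Hochberg over all genes tested). In the Kir2.1 experiment 0 of 37 passed, where 0.353% of 19807 genes did, and in the PEA experiment 0 of 37 passed, where 0.179% of 17322 genes did. At those shares fewer than 1 of 37 genes would be called, so the counts of 0 are at the background. The smallest adjusted p was that of Kif17 in both, 0.180 in the Kir2.1 experiment and 0.119 in the PEA experiment. This fit called 70 genes in the Kir2.1 and 31 in the PEA experiment. The study's own tests of these mice, with DESeq2 at the same threshold, called more genes in each. In both they called the gene read here as Kif17. The counts of 0 thus hold for this limma fit only.

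At an unadjusted p under 0.05, 4 members were lower in the Kir2.1 mice (Kif17, Kifap3, Dync2h1 and Bbs7) and 1 was higher, or 10.8% and 2.7% of the members, against 6.2% of all genes lower and 4.93% higher. In the PEA exposed mice 5 members were lower at that level (Bbs7, Ttc8, Ift80, Ift74 and Kif3a) and 3 were higher (Kif17, Tulp3 and Bbs2), or 13.5% and 8.11%, against 6.04% lower and 8.93% higher. Both counts change with single mice. Without Kir2.1 mouse 1 the count in the Kir2.1 experiment was 1 instead of 5, without the mouse of high vomeronasal signal (Kir2.1 control 1) it was 2, and without Kir2.1 control 2, Kir2.1 control 3 or Kir2.1 mouse 3 it was 3. Without PEA control 4 the count in the PEA experiment was 17 instead of 8, and without PEA control 3 it was 5.

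The signs of the differences leaned downward in both experiments. In the Kir2.1 mice 26 members had a lower mean log2 value than in their controls and 11 a higher one. Of all 19807 genes tested, 9659 were lower and 10148 higher. The median log2 difference was -0.07 over the members against 0.01 over all genes tested. In the PEA exposed mice 25 were lower and 12 higher, with a median of -0.11 against -0.02. Of all 17322 genes tested there, 9261 were lower and 8061 higher. Groups that did not overlap at all were seen for 8 members with lower and 2 with higher values in the Kir2.1 mice, or 21.6% and 5.41% of the members, against 9.04% and 7.26% of all genes. With PEA they were seen for 6 members with lower and 2 with higher values, or 16.2% and 5.41%, against 3.86% and 5.46%. Of the 37 members, 19 were lower in both experiments, 5 higher in both, 7 lower in Kir2.1 mice and higher in PEA exposed mice, and 6 the other way round.

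The lean in the PEA experiment was not seen without the mice of high vomeronasal signal. Only 1 control, PEA control 4, then remained. It lay low over the members, at a median log2 deviation of -0.06 from the mean of all mice of the experiment. The signal and that mouse thus cannot be told apart here. With that control and the 3 exposed mice that remained, 19 members were lower and 18 higher, with a median of -0.01. The sign turned for 14 of the 37, among them Ift22 from -0.22 to 0.59 and Wdr35, an IFT-A subunit, from -0.14 to 0.24. Kif17, Tulp3, Bbs7 and Ttc8 kept their size, at 1.11 (SE 0.38), 0.42 (SE 0.25), -0.29 (SE 0.15) and -0.34 (SE 0.25). Without the 1 such control of the Kir2.1 experiment, the sign turned for 2 members, Ift88 and Tulp3, both near 0, and the median there was -0.06.

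**Figure D1:**
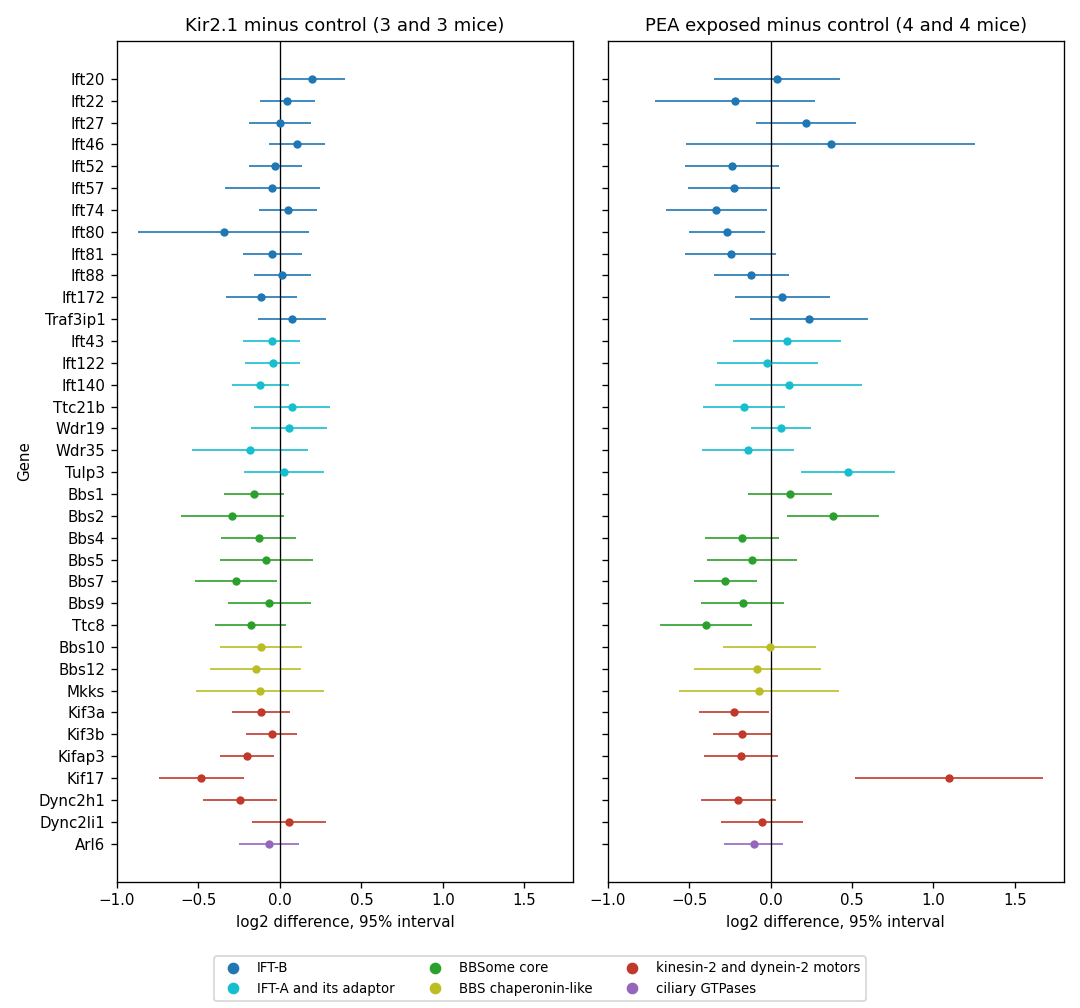
Log2 difference of 36 of the 37 genes (x axis) with its 95% interval from limma, Kir2.1 minus control at left (3 and 3 mice) and PEA exposed minus control at right (4 and 4 mice), with genes down the y axis coloured by role. Kif17 had an interval of -0.74 to -0.22 at left and of 0.52 to 1.67 at right, while most intervals of other genes crossed 0.

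Members varied less between pups of a group than the median gene. The SD of log2 values within groups had a median of 0.098 over the members in the Kir2.1 experiment, against 0.181 over all genes tested, and of 0.171 in the PEA experiment, against 0.258. The standard error of a member's log2 difference ranged from 0.07 to 0.22 in the Kir2.1 experiment, with a median of 0.09. The 40 related cilium genes described below were alike, with a median of 0.10 against 0.15 over all genes tested. In the PEA experiment the medians were 0.13 for members, 0.13 for the related genes and 0.18 for all genes. Members lay above the average gene in level, at a mean log2 value per mouse of 10.65 to 10.76 against 8.49 to 8.55 (Kir2.1). In the PEA experiment these were 9.21 to 9.40 against 7.49 to 7.53. The part of level in the spread was not tested.

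Among the members, Kif17 had the largest difference in both experiments. It lay at 419, 448 and 455 normalized counts in the Kir2.1 control mice and at 324, 282 and 342 in the Kir2.1 mice. All 3 Kir2.1 mice were below all 3 controls. The log2 difference was -0.48 (SE 0.11, limma adjusted p = 0.180), and the exact permutation test over mice gave p = 0.1, two-sided, the smallest that 3 against 3 mice allow. With PEA, Kif17 lay at 21.7, 24.9, 13.4 and 19.9 in the control mice and at 38.9, 47.1, 53.3 and 34.4 in the exposed mice. All 4 exposed mice were above all 4 controls. The log2 difference was 1.10 (SE 0.26, adjusted p = 0.119 by the same limma fit), and the exact permutation test gave p = 0.0286, two-sided, the smallest that 4 against 4 mice allow.

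**Figure D2:**
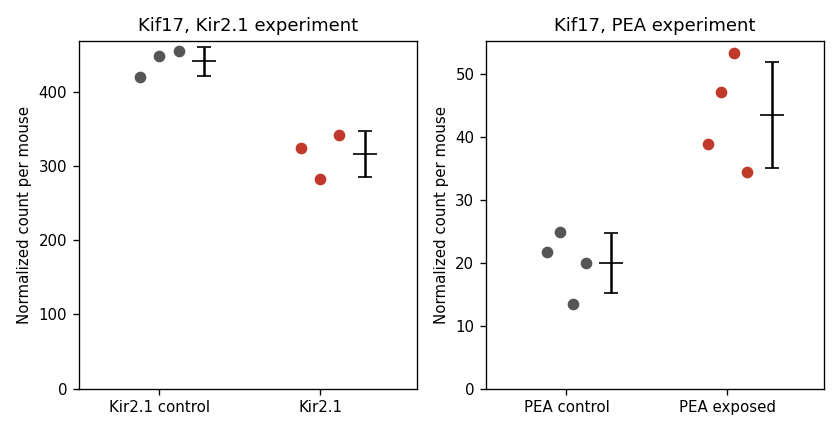
Normalized count of Kif17 (y axis, from 0, with its own scale in each panel) in each mouse, by group, with the mean and SD beside the points. The 3 Kir2.1 mice lie between 282 and 342, below controls between 419 and 455, and the 4 PEA exposed mice lie between 34.4 and 53.3, above controls between 13.4 and 24.9.

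The Kir2.1 and PEA differences of Kif17 were tested against each other. The study appears to have singled out Kif17 for their opposite signs in the same mice. These tests are thus not independent evidence. They test whether the differences are unequal, not the sign of either one. In a limma fit of all 14 mice, the Kir2.1 difference minus the PEA difference of Kif17 was -1.58 on the log2 scale (SE 0.29, adjusted p = 0.0382 with Benjamini-Hochberg adjustment over 16705 genes). Kif17 was the only member called, where 0.443% of all genes were. An exact permutation of the mice within each experiment gave p = 0.00143, two-sided, the smallest that its 1400 regroupings can give. The limma call did not hold in 10 of 22 alternatives. Its adjusted p rose to between 0.0643 and 0.115 with any 1 of the 6 mice of the Kir2.1 experiment left out. It was 0.0501, 0.0722 and 0.0697 without PEA exposed 1, 2 and 3, and 0.0754 without the mice of high vomeronasal signal. The size of the difference stayed between -1.69 and -1.41 in all 22.

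Kif17 was read beside the tissue's OSN content. In the Kir2.1 mice all 12 mature OSN markers were lower at an unadjusted p under 0.05, 11 of them with no overlap between groups and 2 (Omp and Slc17a6) past the adjusted limma threshold, with a median log2 difference of -0.41. In bulk tissue, fewer OSNs and less RNA per OSN cannot be told apart. Taken relative to the mean log2 value of the 12 markers in the same mouse, Kif17 was at -4.49, -4.49 and -4.50 in the Kir2.1 control mice and at -4.43, -4.67 and -4.49 in the Kir2.1 mice. These groups overlapped, with a difference of -0.04 (exact permutation p = 0.9). The Kir2.1 difference of Kif17 (-0.48) was close to the median of the markers (-0.41).

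With PEA the markers differed by a median of only -0.08, with 2 of 12 lower and 1 higher (Omp) at an unadjusted p under 0.05. Relative to them, Kif17 was at -6.65, -6.71, -7.36 and -7.03 in the control mice and at -5.90, -5.78, -5.45 and -6.00 in the exposed mice. All exposed mice stayed above all controls, with a difference of 1.16 (exact permutation p = 0.0286). The difference between the experiments on this relative scale was -1.19 (exact permutation p = 0.0129). This scale was added after the values had been seen.

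The vomeronasal signal was unequal between the PEA groups, high in 3 of 4 controls and in 1 of 4 exposed mice. Among mice with high signal, Kif17 lay between 13.4 and 24.9 in the 3 controls and at 38.9 in the exposed mouse. Among mice with low signal it was 19.9 in the control and between 34.4 and 53.3 in the 3 exposed mice. Exposed mice were above controls in both subsets, each of which has 1 mouse in a group and no test. The exons of Kif17 overlap those of Sh2d5 on the same strand by 74 bases. Sh2d5 ranged from 228 to 325 in the Kir2.1 control mice and from 215 to 228 in Kir2.1 mice, and from 29.1 to 55.1 in the PEA control mice and from 36.7 to 57.6 in exposed mice. Its PEA groups overlapped, and its log2 difference there was 0.15 (SE 0.24). Its Kir2.1 difference was -0.32 (SE 0.15, limma adjusted p = 0.505), of the same sign as that of Kif17.

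The heterotrimeric kinesin-2 consists of KIF3A, KIF3B and the adaptor KIFAP3, and it carries most outward transport. Kifap3 lay at 3725, 3815 and 3623 in the Kir2.1 control mice and at 3020, 3327 and 3370 in the Kir2.1 mice, with no overlap (log2 difference -0.20, SE 0.07, limma adjusted p = 0.346). Kif3a was at 3373, 3335 and 3831 in the controls and at 3181, 3212 and 3301 in the Kir2.1 mice, also with no overlap (-0.12, SE 0.08), a difference that was -0.05 without Kir2.1 control 3. Kif3b lay between 3422 and 3798 in all 6 mice, and its groups overlapped.

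With PEA, all 3 subunits had lower means in exposed mice. Kif3a was at 1236, 1104, 1056 and 964 in the controls and at 921, 908, 950 and 937 in the exposed mice, with no overlap (log2 difference -0.22, SE 0.10, limma adjusted p = 0.315), but without the mice of high vomeronasal signal the difference was -0.05. Kif3b was at 1626, 1644, 1546 and 1526 in the controls and at 1405, 1438, 1439 and 1335 in the exposed mice, again with no overlap (-0.17, SE 0.08, limma adjusted p = 0.342). Kifap3 ranged from 1527 to 1993 in the controls and from 1487 to 1667 in exposed mice, with overlap (-0.18, SE 0.10). Without the mice of high vomeronasal signal the differences were -0.12 for Kif3b and -0.36 for Kifap3. Kif17 thus stood at the opposite sign to the other kinesin-2 subunits in the PEA experiment and at the same sign in the Kir2.1 experiment.

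Dynein-2 is the return motor. Dync2h1, its heavy chain, lay at 2966, 3135 and 3032 in the Kir2.1 control mice and at 2446, 2945 and 2345 in the Kir2.1 mice, with no overlap (log2 difference -0.25, SE 0.10, limma adjusted p = 0.407). In the PEA groups it ranged from 3365 to 4224 in the controls and from 3064 to 3723 in exposed mice (-0.20, SE 0.10), with overlap, and the difference was -0.36 without the mice of high vomeronasal signal. Dync2li1, its light intermediate chain, differed by 0.06 (SE 0.10) in the Kir2.1 experiment and by -0.05 (SE 0.11) in the PEA experiment. Its sign changed in both with single mice left out.

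**Figure D3:**
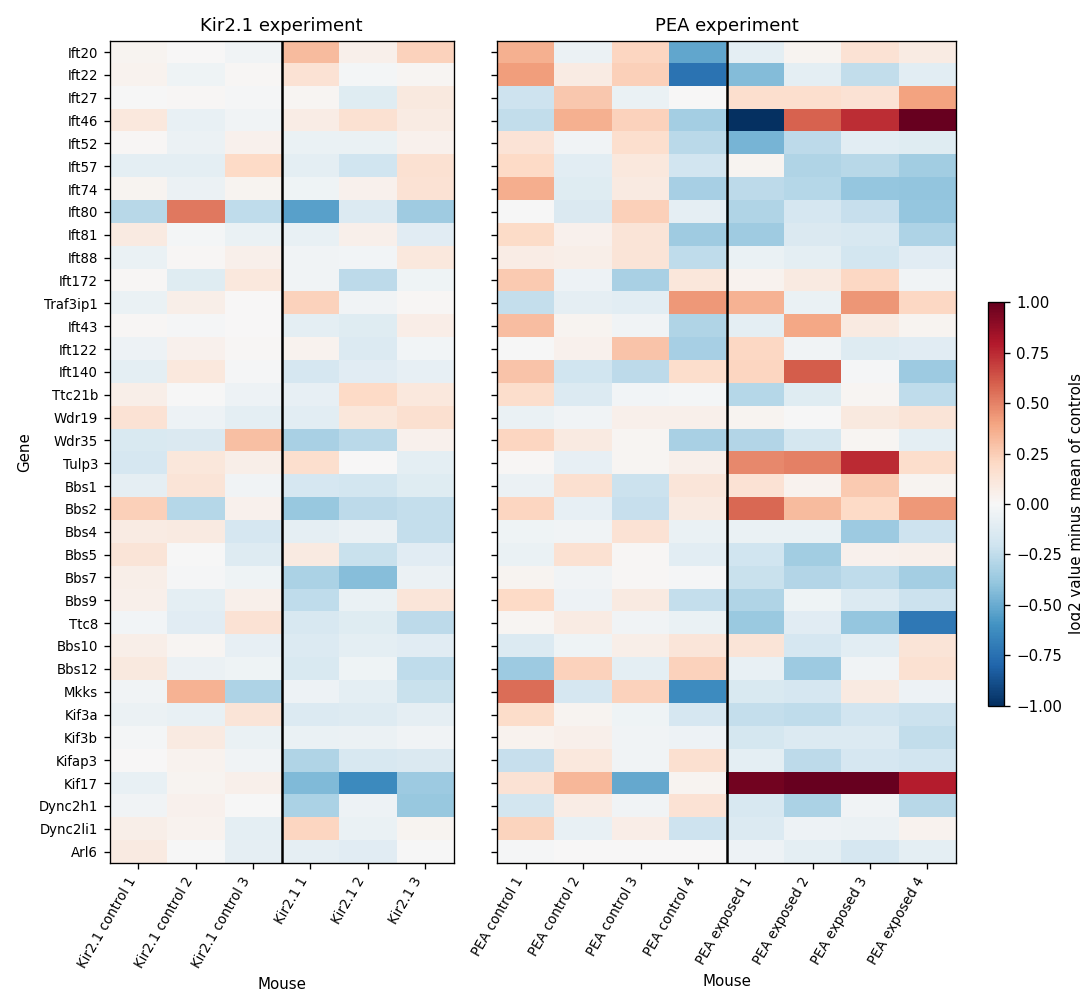
36 of the 37 genes (rows) in each mouse (columns) as its log2 value minus the mean of the control mice of the same experiment, with blue for lower and red for higher and colours ending at -1 and 1. The Kif17 row is blue in all 3 Kir2.1 mice and red in all 4 PEA exposed mice.

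All 7 listed BBSome core genes had a negative log2 difference in the Kir2.1 mice, from -0.29 (Bbs2) to -0.07 (Bbs9). Their median was -0.16, and none passed the adjusted test. Bbip1, a BBSome gene outside the list, had a positive difference there, at 0.10 (SE 0.10). Bbs7, which encodes a beta-propeller subunit, lay at 1280, 1217 and 1194 in the Kir2.1 control mice and at 985, 916 and 1180 in the Kir2.1 mice (log2 difference -0.27, SE 0.11, limma adjusted p = 0.412). Bbs1, the subunit that binds ARL6, was at 2136, 2476 and 2213 in the controls and at 2017, 1994 and 2087 in the Kir2.1 mice. Ttc8 (also BBS8) was at 1314, 1237 and 1484 in the controls and at 1203, 1235 and 1120 in the Kir2.1 mice. In these 3 genes the groups did not overlap, although the nearest Ttc8 values were 1237 and 1235. Bbs4 and Bbs5 lay between 1560 and 1961 and between 410 and 523, with overlap. Bbs9 turned to 0.03 without Kir2.1 mouse 1.

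Beside the BBSome, the mature OSN markers were lower in the same mice by a median of -0.41, as given above, and the multiciliated cell markers were higher by a median of 0.22. Of 16 markers of multiciliated cells of the respiratory lining, which use the same transport machinery, 14 were found in the tables, and in Kir2.1 mice 12 of these had higher and 2 lower means, 3 of them higher at an unadjusted p under 0.05. Kir2.1 mouse 1 had a mean log2 value of 11.16 over these 14, against 10.50 to 10.71 in the other 5 mice, and their summed normalized counts were 41836 in it against 25091 to 30775. Foxj1, the master regulator of motile cilia, ranged from 5252 to 6343 in the controls and from 6116 to 8844 in Kir2.1 mice. The part of either cell type in the members' values was not tested. Immature OSN markers differed by a median of -0.05. With PEA the multiciliated cell markers differed by a median of -0.12, with 9 lower and 5 higher, and Foxj1 ranged from 375 to 484 in the controls and from 552 to 653 in exposed mice. All 4 basal cell markers, the keratins Krt5 and Krt14 among them, had higher means in both experiments, with a median of 0.33 in the Kir2.1 mice and of 0.44 with PEA. With PEA the smallest of these differences was only 0.003, and 2 markers were higher at an unadjusted p under 0.05. Their mean log2 value per mouse did not overlap between the PEA groups, at 7.21 to 7.59 in the controls and 7.72 to 7.93 in exposed mice, and overlapped in the Kir2.1 experiment. The part of these cells in the members' values was not tested.

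In the PEA exposed mice, 5 of the 7 listed BBSome core genes were lower and 2 higher, with a median of -0.17. Bbs7 was at 578, 554, 572 and 563 in the controls and at 486, 464, 474 and 448 in the exposed mice, with no overlap (log2 difference -0.28, SE 0.09, limma adjusted p = 0.195, exact permutation p = 0.0286). It was lower in both experiments by nearly the same amount, -0.27 and -0.28. Ttc8 was at 619, 645, 596 and 581 in the controls and at 471, 563, 467 and 371 in the exposed mice, again with no overlap (-0.40, SE 0.13, limma adjusted p = 0.204).

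Bbs2, another beta-propeller subunit, had the opposite sign with PEA. It lay at 611, 498, 449 and 560 in the PEA controls and at 785, 656, 605 and 711 in the exposed mice. The groups overlapped by a single pair, 611 and 605 (log2 difference 0.38, SE 0.13, limma adjusted p = 0.212), and the difference was 0.23 without the mice of high vomeronasal signal. In the Kir2.1 experiment it was at 2100, 1462 and 1839 in the controls and at 1369, 1489 and 1510 in the Kir2.1 mice (-0.29, SE 0.13, limma adjusted p = 0.491), and the difference was -0.17 without Kir2.1 control 1, the mouse of high vomeronasal signal. The Kir2.1 difference minus the PEA difference was -0.68 (SE 0.19, unadjusted p = 0.00356, limma adjusted p = 0.159). Differences at an unadjusted p under 0.05 were seen for 4 members, Kif17 and Tulp3 among them, and for 13.2% of all genes.

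The 3 chaperonin-like proteins MKKS, BBS10 and BBS12 help assemble the BBSome. Their genes were low in level, and all 3 were lower in both experiments without passing the test, from -0.15 (Bbs12) to -0.12 (Bbs10) in the Kir2.1 mice. In the PEA exposed mice they ranged from -0.08 (Bbs12) to -0.01 (Bbs10), and all 3 signs turned with single mice left out. Mkks also turned in the Kir2.1 experiment, from -0.12 to 0.05 without Kir2.1 control 2, and in the PEA experiment from -0.07 to 0.59 without the mice of high vomeronasal signal. Bbs10 lay at 279, 272 and 253 in the Kir2.1 control mice and at 244, 251 and 247 in the Kir2.1 mice. These groups did not overlap, with 253 and 251 as the nearest values. Mkks varied most of the 3 between pups, from 410 to 645 in the Kir2.1 controls and from 215 to 491 in the PEA controls, and its exons overlap those of 3 annotated neighbours. Exons of Ift57, Ift88, Bbs4, Bbs12 and Arl6 also overlap other genes, on the opposite strand for all 5 and also on the same strand for Bbs12, and the unstranded Kir2.1 libraries cannot tell such reads apart.

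IFT-B makes up the backbone of the train and carries tubulin outward. In the Kir2.1 experiment 6 of its 12 genes were lower and 6 higher, with a median log2 difference of 0.01, and no gene had an unadjusted p under 0.05. Ift20, the subunit also found at the Golgi, lay at 1929, 1904 and 1848 in the controls and at 2357, 1961 and 2222 in the Kir2.1 mice, with no overlap (0.20, SE 0.09, limma adjusted p = 0.451). Ift80 had the most negative difference, -0.35 (SE 0.22), and rested on 1 mouse: it was at 5516 in Kir2.1 control 2 and between 2624 and 3472 in the other 5, and without that mouse the difference was -0.08. The remaining 10 genes lay between -0.11 (Ift172) and 0.11 (Ift46), among them Ift88, the subunit whose partial loss shortens cilia in mice, at 0.01 (SE 0.07, 95% interval -0.16 to 0.19).

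In the PEA exposed mice 7 IFT-B genes were lower and 5 higher, with a median of -0.17. Ift74 and Ift81 form the tubulin-binding module of the train. Ift74 was at 1534, 1098, 1273 and 947 in the controls and at 994, 978, 912 and 908 in the exposed mice, with PEA control 4 inside the exposed range (log2 difference -0.33, SE 0.14, limma adjusted p = 0.307). The difference was -0.21 without PEA control 1 and -0.02 without the mice of high vomeronasal signal. Ift81 ranged from 1337 to 1949 in the controls and from 1334 to 1544 in exposed mice (-0.25, SE 0.13), and its difference turned to 0.15 without the same mice. Ift80 was at 2073, 1885, 2453 and 1949 in the controls and at 1690, 1851, 1774 and 1594 in the exposed mice, with no overlap (-0.27, SE 0.10, limma adjusted p = 0.274), and the difference was -0.17 without those mice.

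Ift46 had the widest spread of all members in the PEA experiment. It lay at 768, 1168, 1072 and 719 in the controls and at 447, 1372, 1521 and 2064 in the exposed mice, so exposed mice held both the lowest and the highest values (log2 difference 0.37, SE 0.40). The difference was 0.84 without PEA exposed 1 and 0.10 without PEA exposed 4, and without the mice of high vomeronasal signal all 3 exposed mice were above the control at 719. Its values in the Kir2.1 experiment lay between 2448 and 2867. Ift20 and Ift22 were lowest in PEA control 4, at 420 and 313, and highest in PEA control 1, at 772 and 698. Their differences were 0.04 and -0.22, and 0.60 and 0.59 without the mice of high vomeronasal signal. PEA control 1 had the highest value of 14 of the 37 members and PEA control 4 the lowest of 8, so the PEA controls differed from each other over many members at once. PEA control 1 had a high and PEA control 4 a low vomeronasal signal, and the part of that signal in the members' values was not tested.

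IFT-A and its adaptor Tulp3 serve return transport and the import of membrane receptors. In the Kir2.1 experiment 4 of the 7 genes were lower and 3 higher, from -0.18 (Wdr35) to 0.07 (Ttc21b), none at an unadjusted p under 0.05. Single mice set both ends: Wdr35 was at -0.03 without Kir2.1 control 3, and Ttc21b at 0.01 without Kir2.1 mouse 2 and at 0.15 without Kir2.1 mouse 1. In the PEA experiment Tulp3, which links the IFT-A complex to membrane cargo such as G protein-coupled receptors, lay at 274, 256, 275 and 281 in the controls and at 378, 385, 456 and 306 in the exposed mice. All exposed mice were above all controls (log2 difference 0.48, SE 0.13, limma adjusted p = 0.149, exact permutation p = 0.0286). In the Kir2.1 mice Tulp3 differed by 0.03 (SE 0.10), with a sign that turned with other settings. Its difference between the experiments was -0.45 (SE 0.18, limma adjusted p = 0.285). The 6 core IFT-A genes lay between -0.16 (Ttc21b) and 0.11 (Ift140) in the PEA experiment, and their groups overlapped.

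ARL6 is the small GTPase that recruits the BBSome to membranes. Arl6 was the steadiest member in the PEA controls, at 728, 735, 734 and 735, and lay at 706, 685, 652 and 685 in the exposed mice, with no overlap (-0.10, SE 0.08).

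**Figure D4:**
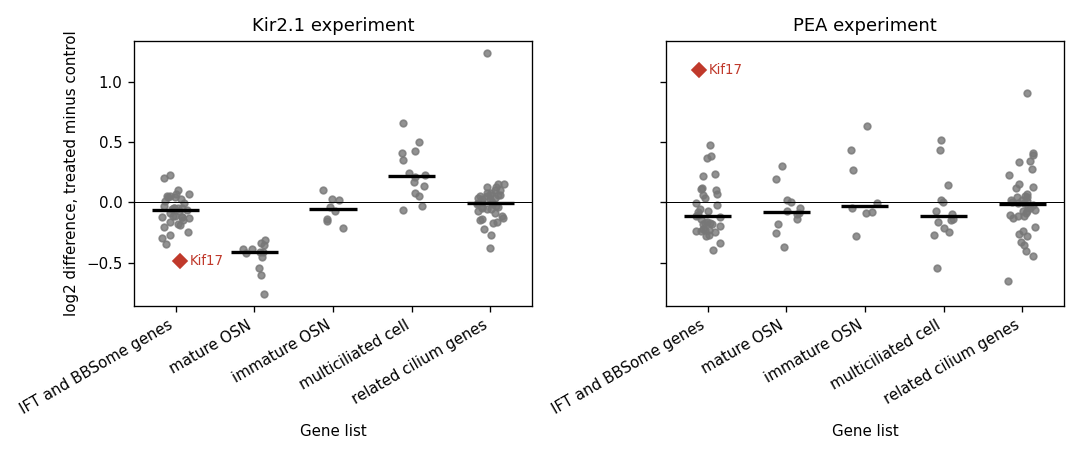
Log2 difference (y axis) of each gene in 5 gene lists (x axis), Kir2.1 minus control at left and PEA exposed minus control at right, with a bar at each median and Kif17 as a red diamond. The medians at left are -0.07 for the 37 members, -0.41 for mature OSN, -0.05 for immature OSN, 0.22 for multiciliated cell markers and 0.00 for the 40 related cilium genes.

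Another 40 genes of cilium transport and of the transition zone at the cilium base were read beside the members. None of the 40 passed an adjusted p of 0.05 in either experiment (limma, Benjamini-Hochberg). In the Kir2.1 mice 20 were lower and 20 higher, with 2 lower (Kif3c and Tctn1) and 1 higher (Ttc30a2) at an unadjusted p under 0.05. At that level 6.2% of all genes were lower and 4.93% higher. Kif3c, a motor subunit outside the list of 37 that pairs with KIF3A in neurons, ranged from 5325 to 5909 in the controls and from 3579 to 4798 in Kir2.1 mice (log2 difference -0.38, SE 0.12), with no overlap. In the PEA exposed mice 22 were lower and 18 higher, with 5 lower (Hspb11, Cluap1, Bbip1, Cep290 and Rpgr) and 4 higher (Wdr34, Tctn1, B9d1 and B9d2) at that level. Of all genes 6.04% were lower and 8.93% higher there. Hspb11 and Cluap1 are IFT-B subunits outside the list of 37, and they differed by -0.33 (SE 0.12) and -0.35 (SE 0.13), in the direction of Ift74 and Ift80. Over the 12 of the 40 genes that encode IFT-B, dynein-2 or kinesin-2 subunits, 8 were lower and 4 higher, with a median of -0.02. Hspb11 and Cluap1 were not read without the mice of high vomeronasal signal. Cep290, the linker protein of the transition zone, differed by -0.40 (SE 0.11). B9d2, of the same zone, ranged from 26.1 to 34.8 in the controls and from 48.1 to 65.6 in exposed mice (0.91, SE 0.19). The medians over the 40 genes were 0.00 and -0.02, against 0.01 and -0.02 over all genes tested.

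Levels were compared between genes after division by the length of the longest annotated coding transcript, as normalized counts per kb. In the Kir2.1 controls the highest were Ift43 at 2852, Ift20 at 1660 and Ift27 at 1278, and the lowest were Bbs10 at 97.6, Bbs12 at 106 and Kif17 at 128. In the PEA controls the highest were Ift43 at 689, Ift81 at 586 and Ift74 at 567, whose ranges over mice overlapped, and the lowest were Kif17 at 5.78, Bbs12 at 63.3 and Bbs10 at 63.6. Kif17 ranged from 3.88 to 7.20 per kb there, below the lowest mouse of Bbs12 at 48.4. Bbs10 and Bbs12 overlapped in the PEA controls, from 57.6 to 69.2 and from 48.4 to 73.4. The rank correlation of the 37 levels between the 2 sets of controls was 0.62 (Spearman, a description across genes that share tissue and annotation). Kif17 was above only Bbs10 and Bbs12 in the Kir2.1 controls and below all other members in the PEA controls. Library type and read length differ between these sets, the strain may too, and their parts cannot be told apart.

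**Figure D5:**
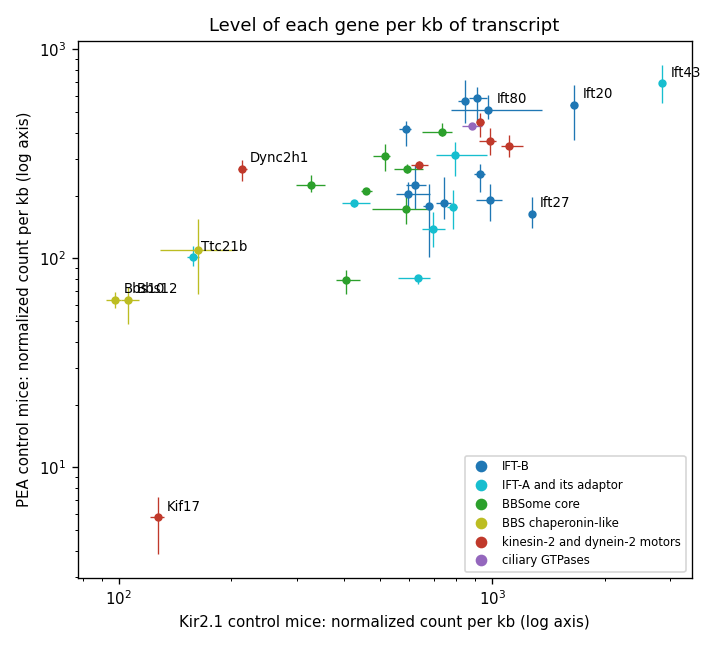
Mean normalized count per kb of transcript in the PEA control mice (y axis, log) against the Kir2.1 control mice (x axis, log) for 36 of the 37 genes, coloured by role, with lines from the lowest to the highest mouse. Ift43 is at the top right at 2852 and 689, and Kif17 lies far below the other genes on the y axis at 5.78.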

How the data were processed

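RNA of whole olfactory epithelium was measured in 14 pups. Per the study's methods, the authors assigned reads with Salmon 1.3.0 to the Ensembl transcriptome on GRCm38, summed them per gene and scaled them with DESeq2 1.30.0. The same Salmon setting for reverse-stranded reads is stated for both experiments, although the Kir2.1 libraries are unstranded. The deposited values are thus a normalized signal per gene (normalized counts), not whole reads, so count models were not run, and neither the depth of a library nor the counting error behind a value is known. The precision of a value is given only by the spread between mice.

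Columns were matched to mice by their labels. PEA control 4 is replicate 4 in its label and carries another number in its library name. A gene was tested where its mean within the experiment reached 10. Values were turned to log2 after adding 1. The 2 experiments were fitted separately in limma 3.58.1 (R 4.3.3) with moderated variances and a trend on the mean, and p-values were adjusted by Benjamini-Hochberg over all genes tested, with a threshold of 0.05. The scale understates changes of low genes. The difference between the experiments was fitted in 1 limma model with a mean for each of the 4 groups. Exact permutation tests over mice were two-sided. The limma fit was tested on simulated data before use.

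Members, gene lists and marker lists were chosen with earlier results of these data known. All members are accounted for by role and in every count, and the own values of 1 member are not reported here. Those given in full are the ones with an unadjusted p under 0.05 and those at the ends of each role group, with Kif17 always. Arl6, Bbs1, Kif3b, Ift81, Ift88 and Mkks were added for their role or spread after their values were seen. GENCODE vM21 (GRCm38) gave gene positions, lengths and exon overlaps for all 37 members. Promoters came from RefSeq on GRCm38.p6. Python 3.11.15 with pandas 2.3.3 and matplotlib 3.10.9 was used for these and for the plots. Alternatives were other pseudocounts, no filter and a limit of 50 on the mean, no trend, array weights, quantile normalization, median centring, vomeronasal, multiciliated and Xist covariates, the replicate block, and each mouse left out in turn. Leaving out the mice of high vomeronasal signal (a mean log2 value over 3), the Xist covariate, the counts at an unadjusted p and Kif17 relative to OSN markers were added after the data had been seen.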

Additional observations from a re-analysis of the deposited data

Results flagged for a closer look

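Kif17 differed between the experiments: the Kir2.1 difference minus the PEA difference was -1.58 on the log2 scale (limma adjusted p = 0.0382, exact permutation p = 0.00143). These p-values do not test the sign of either difference. Kif17 was lower in 3 of 3 Kir2.1 mice than in every control. It was higher in 4 of 4 PEA exposed mice than in every control. The study appears to have singled out the gene for this pattern in the same mice, so the p-values above are not independent evidence. The limma adjusted p rose to between 0.0643 and 0.115 with any 1 mouse of the Kir2.1 experiment left out. Relative to the mature OSN markers, the Kir2.1 difference of Kif17 was -0.04, with overlapping groups, and the PEA difference was 1.16.

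In groups of 4 mice, a single mouse stood apart from the other 3 in 3 of the 74 pairs of member and group checked, by the gap to its neighbour relative to the whole range. Chance flags about 1 in 20 such groups. Bbs4 was at 1123 normalized counts in PEA control 3, against 971 to 990 in the other controls. Ift27 was at 217 in PEA exposed 4, against 182 to 184 in the other exposed mice. Ift57 was at 534 in PEA exposed 1, against 411 to 431 in the other exposed mice. The 3 flags fell on 3 different mice.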

How the results depend on the processing

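No member was called in either experiment under any of the 20 alternatives in the Kir2.1 experiment and the 22 in the PEA experiment, the replicate block included, under which 0 members were called in both. The replicate block pairs mice by number, but the correlations of the deviations within these pairs were -0.06, -0.01 and 0.16 (Kir2.1) and 0.13, -0.02, -0.05 and 0.10 (PEA), so the numbers were not taken to pair them. Under it, 9 instead of 70 of all genes were called in the Kir2.1 experiment. The 1 member called for a difference between experiments, Kif17, became 0 with a mean of at least 50, where Kif17 was not tested, and without the mice of high vomeronasal signal, and ranged from 0 to 1 with single mice left out. The exact permutation p of that difference lay between 0.00143 and 0.0129 in its 19 alternatives. The 5 Kir2.1 members at an unadjusted p under 0.05 became 2 without a trend, 2 with a vomeronasal covariate, 1 with a multiciliated covariate, 2 without the mice of high vomeronasal signal and 1 to 5 with single mice left out. The 8 PEA members became 5 without a trend, 13 with array weights, 5 with quantile normalization, 13 with median centring, 5 with a vomeronasal covariate and 5 to 17 with single mice left out. The median log2 difference was -0.10 in the Kir2.1 experiment with median centring and -0.0106 in the PEA experiment without the mice of high vomeronasal signal.

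Over all 37 members, 2 signs turned in the Kir2.1 experiment and 14 in the PEA experiment without the mice of high vomeronasal signal, and 1 to 5 and 0 to 4 with any 1 mouse left out. The other alternatives were run for the members named by the rule. Log2 differences turned with a multiciliated covariate to 0.0356 for Bbs9, -0.0185 for Dync2li1 and -0.0794 for Tulp3 in the Kir2.1 experiment and to 0.0011 for Bbs10 in the PEA experiment. They turned with median centring to -0.0140 for Tulp3 (Kir2.1) and -0.00991 for Ift20 (PEA), with a vomeronasal covariate to -0.0617 for Tulp3 (Kir2.1), and with array weights to 0.0031 for Bbs10 (PEA). Without the mice of high vomeronasal signal they were -0.0597 for Tulp3 (Kir2.1) and 0.11 for Bbs9, 0.19 for Dync2li1 and 0.24 for Wdr35 (PEA). With single mice left out, values ranged in the Kir2.1 experiment from -0.159 to 0.0278 for Bbs9, -0.0208 to 0.120 for Dync2li1 and -0.0597 to 0.0864 for Tulp3. In the PEA experiment they ranged from -0.0513 to 0.0502 for Bbs10, -0.201 to 0.0146 for Bbs12, -0.122 to 0.0213 for Dync2li1 and -0.133 to 0.159 for Ift20. The causes were not tested.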
